A study of Homo sapiens with 12 samples.

Results

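The 42 genes examined here encode the proteins that license replication origins and copy DNA at the fork. They were listed by symbol, with earlier results of these data known, and each was found as 1 entry among the 62069 genes of the count table. RNA sequencing (RNA-seq) was performed on IMR90 ER:RAS cells, human lung fibroblasts that carry RAS joined to an estrogen receptor domain, in which 4-hydroxytamoxifen (4OHT) switches RAS on and sets off oncogene-induced senescence (OIS). The comparisons ask how the replication genes behave in OIS, and whether they differ when XPO7, a nuclear transport receptor, is depleted by a short hairpin RNA (shRNA) in the induced cells.

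There were 4 groups of 3 libraries, and all of them carried the ER:RAS fusion. The groups were vector cells without induction, vector/4OHT, shXPO7_3/4OHT and shXPO7_5/4OHT. The last of these was taken to be the shRNA that the study also writes as shXPO7_X5. The sample records give day 5, passage 13 and 7 days in culture with a change of medium on day 4 for all groups. The 4OHT dose of the protocol was 100 nM, and the vector libraries are labelled non-induced. Whether libraries of 1 group are separate cultures is not stated, so the p-values reflect only variation among these libraries, possibly of technical origin. Libraries of a group are named by the letters in their labels, which are T, A and C for vector and T, A and B for the other groups. The cells of a library were not sorted, so fewer cycling cells and less RNA per cycling cell cannot be told apart.

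Before S phase, the origin recognition complex (ORC), CDC6 and CDT1 load pairs of MCM2-7 rings onto origins, a step called licensing that geminin (GMNN) blocks once CDT1 has acted. The kinase CDC7 with its partner DBF4, and then CDC45 and the GINS complex, turn the loaded rings into active CMG helicases (CDC45, MCM2-7, GINS), and polymerase alpha with primase, polymerases epsilon and delta, the PCNA clamp and its loader RFC, FEN1, LIG1, the single-strand binding protein RPA and the TIMELESS-TIPIN-CLSPN fork protection proteins carry out synthesis. Many of these genes are textbook targets of E2F transcription factors, which the retinoblastoma protein family holds in check in cells that have left the cycle.

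Promoter sequence was therefore examined beside the expression values. The RefSeq promoter table (GRCh38.p14, from 250 bases before to 50 bases after each start) held 36 of the 42 genes. An E2F-type match, defined as TTTCCCGC, TTTCGCGC, TTTGCCGC or TTTGGCGC on either strand, was found in 20 of the 36 (55.6%). The same letters were found in 3.99% of all 27305 genes of the table and in 6.42% of the 11113 that were also tested for expression. Matches were found for 4 of the 4 MCM2-7 genes in the table, 3 of 5 origin licensing genes, and 3 of 5 genes of the CMG cofactors and MCM10. In the first window of each gene, 13 of 23 matches lay within 100 bases before the start. The 7 stretches printed here cover 4 genes of large decrease in OIS (CLSPN, POLE2, GINS2, CDT1), MCM6 of the helicase ring, and the weakly changed PCNA and POLD2. Each runs 5′ to 3′ in the direction of transcription from 125 bases before to 15 bases after the start, with E2F-type matches in capitals.
CLSPN: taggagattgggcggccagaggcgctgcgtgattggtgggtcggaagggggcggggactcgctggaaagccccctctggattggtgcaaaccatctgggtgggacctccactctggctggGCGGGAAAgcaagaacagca
POLE2: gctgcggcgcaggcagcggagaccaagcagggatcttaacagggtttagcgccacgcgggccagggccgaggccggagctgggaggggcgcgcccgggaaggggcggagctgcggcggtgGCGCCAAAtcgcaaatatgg
GINS2: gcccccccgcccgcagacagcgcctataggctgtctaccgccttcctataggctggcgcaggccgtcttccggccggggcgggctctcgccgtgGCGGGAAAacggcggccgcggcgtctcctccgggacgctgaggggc
CDT1: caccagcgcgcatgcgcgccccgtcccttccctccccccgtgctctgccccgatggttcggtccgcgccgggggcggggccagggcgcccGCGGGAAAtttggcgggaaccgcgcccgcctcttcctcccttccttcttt
MCM6: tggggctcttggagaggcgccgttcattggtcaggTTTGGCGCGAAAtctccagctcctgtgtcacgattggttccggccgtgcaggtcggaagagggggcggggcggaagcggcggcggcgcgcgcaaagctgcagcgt
PCNA: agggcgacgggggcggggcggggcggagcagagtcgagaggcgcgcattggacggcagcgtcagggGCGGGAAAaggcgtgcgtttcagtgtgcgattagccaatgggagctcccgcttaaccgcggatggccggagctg
POLD2: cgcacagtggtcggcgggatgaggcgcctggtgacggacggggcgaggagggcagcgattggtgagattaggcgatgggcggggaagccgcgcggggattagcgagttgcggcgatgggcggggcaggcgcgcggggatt

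The stretches lie at chr1:35769964-35770103 on the minus strand for CLSPN, chr14:49688200-49688339 (minus) for POLE2, chr16:85688940-85689079 (minus) for GINS2, chr16:88803664-88803803 (plus) for CDT1, chr2:135876429-135876568 (minus) for MCM6, chr20:5126608-5126747 (minus) for PCNA and chr7:44123534-44123673 (minus) for POLD2. In CLSPN and POLE2 the match began 5 bases before the start, and in MCM6 the capitals hold 2 overlapping matches on opposite strands. PCNA, whose level fell much less than that of CLSPN, also held a match, and POLD2 held none in its 300 bases. Of the 27 matched genes that were called lower by at least 1 on the log2 scale in OIS, 17 held a match, against 3 of the other 9. The CCAAT box (CCAAT) was found in 61.1% of the 36 genes and 43.1% of tested genes, and the GC box (GGGCGG) in 77.8% and 76.0%. The cell cycle homology region TTTGAA was found in 1 of the 36, DBF4 (2.78%), and in 13.9% of tested genes. A match is a run of letters and not evidence of binding.

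Values rest on read counts per gene. Totals ran from 28534141 to 60397769 reads per library (median 35319409), and levels are given as CPM, a read count scaled by library size, after TMM scaling. All 42 genes passed edgeR's filter for expression, which kept 15284 genes. The lowest count of any of them in any library was 34, for PRIM1 in vector/4OHT A, and the highest level was 140.8 CPM, for MCM7 in vector T. Called genes are those whose p in edgeR's quasi-likelihood test, adjusted by Benjamini-Hochberg over all genes tested, was under 0.05, and "±" gives the SD of 3 libraries. The 10 fibroblast markers were all detected and summed to 20161 to 31611 CPM per library. The 4 endothelial markers summed to 1.9 to 5.27 CPM per library, with reads for VWF and KDR and none for PECAM1 and CDH5. The 5 leukocyte markers summed to 0.34 to 1.36 CPM per library, and the T cell marker CD3E among them was at 0 in every library. The 4 epithelial markers (EPCAM, CDH1, KRT19 and CLDN4) summed to 37.1 to 43.2 CPM in vector and 3.20 to 4.89 CPM in the induced groups, and their part in the results was not tested.

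XPO7, the targeted gene, was low in all 6 knockdown libraries. It was at 143, 132 and 129 CPM in vector T, A and C and at 127, 144 and 139 CPM in vector/4OHT T, A and B. The level was 26.4, 28.7 and 27.9 CPM in shXPO7_3/4OHT, a log2 fold change of -2.30 (SE 0.074, adjusted p = 1.24e-08), and 50.8, 54.0 and 51.8 CPM in shXPO7_5/4OHT, a log2 fold change of -1.39 (SE 0.072, adjusted p = 3.27e-06). MKI67, a proliferation marker that is not among the 42, went from 280, 250 and 280 CPM in vector to 26.8, 30.3 and 25.5 CPM in vector/4OHT (log2 fold change -3.296, SE 0.096, adjusted p = 8.93e-11).

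In OIS, nearly all of the 42 genes fell. Of them, 41 were called lower in vector/4OHT than in vector and 0 were called higher, where 26.1% of all genes tested were called lower and 24.8% higher. The exception was RPA2, the middle subunit of RPA. The fall was at least 1 on the log2 scale for 31 of the 42 (10.1% of all genes tested). It was at least 2 for 9 of them, and for 479 of all 15284 genes tested. The median log2 fold change was -1.42, compared with -0.0068 over all genes tested, and the range ran from -2.60 for CLSPN to 0.15 for RPA2. In 41 genes every vector/4OHT library was below every vector library, which held for 31.4% of all genes tested. With upper-quartile scaling in place of TMM, the median of all genes moved to -0.10 and 38.3% of all calls were higher in place of 48.8%, and 41 of the 42 genes were again called lower.

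**Figure D1:**
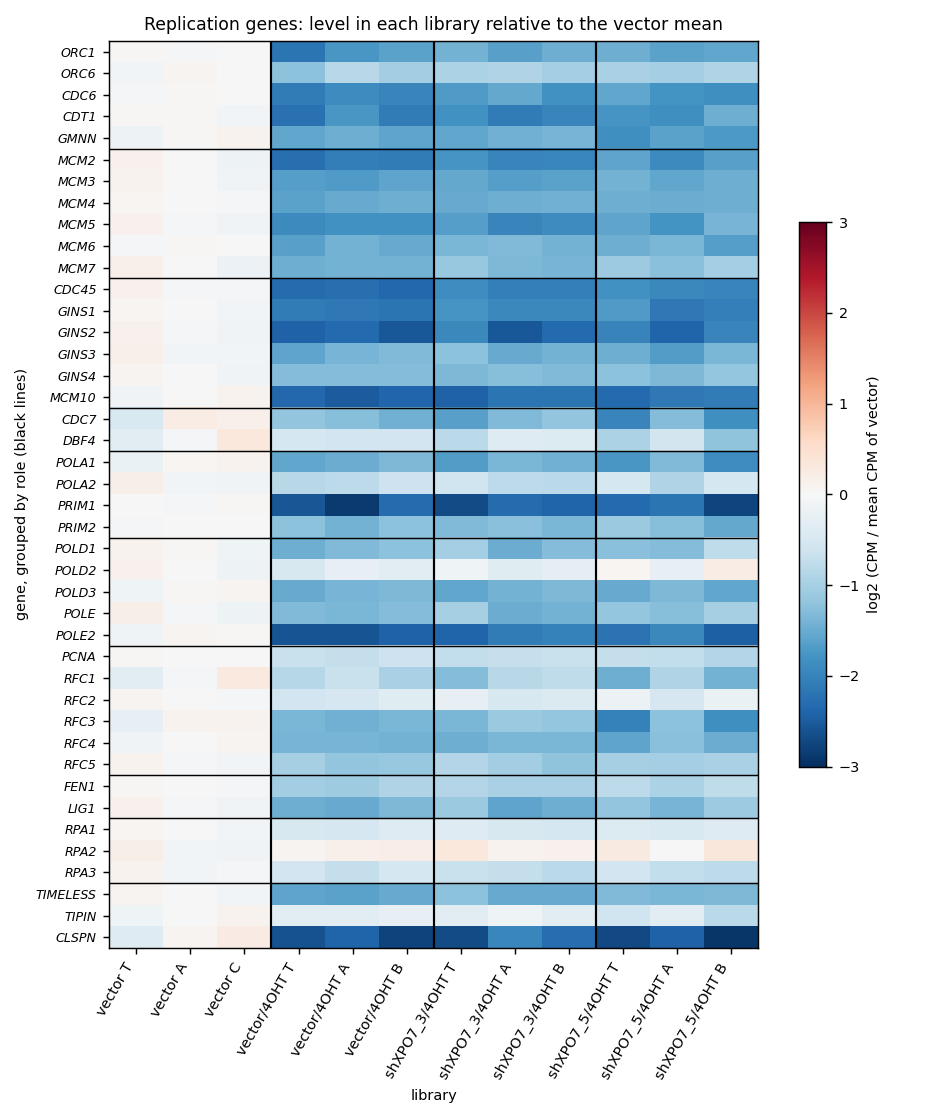
Level of each of the 42 genes (rows, grouped by role) in each of the 12 libraries (columns), as log2 of its CPM over the mean CPM of the 3 vector libraries, where blue is lower and red higher. The 9 induced libraries are blue in most rows, darkest for CLSPN, PRIM1, POLE2 and GINS2, and near white for RPA2, POLD2 and TIPIN.

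Among the origin licensing genes, all 5 were called lower, with a median log2 fold change of -1.82. CDT1, the licensing factor that brings MCM2-7 to origins, had 16.9, 16.9 and 15.4 CPM in vector T, A and C and 3.50, 4.93 and 3.81 CPM in vector/4OHT T, A and B. Every induced library was thus far below every vector library, and the log2 fold change was -2.02 (SE 0.14, adjusted p = 1.41e-07). CDC6, the ATPase that works beside CDT1, fell from 37.6 ± 0.99 to 9.50 ± 0.64 CPM, a log2 fold change of -1.99 (SE 0.10, adjusted p = 9.91e-09). ORC1, the ORC subunit that comes and goes with the cell cycle, fell by 1.82 on the log2 scale (15.8, 14.6 and 15.6 CPM against 3.36, 4.61 and 5.02 CPM). ORC6 had the smallest change of the group, from 19.7, 21.8 and 20.6 CPM to 8.77, 11.7 and 9.99 CPM, a log2 fold change of -1.03 (SE 0.10, adjusted p = 3.39e-06). GMNN, the inhibitor of CDT1, also fell, from 20.9, 23.8 and 25.1 CPM to 7.87, 8.47 and 7.77 CPM (log2 fold change -1.54). Loading factors and their inhibitor therefore decreased side by side, with a larger estimate for CDT1 than for GMNN. With the offset for GC content and length described further on, the log2 fold changes were -1.90 for CDT1 and -1.61 for GMNN. The log2 ratio of CDT1 to GMNN within a library went from -0.31, -0.49 and -0.70 in vector to -1.17, -0.78 and -1.03 in vector/4OHT, a difference of -0.49 (SE 0.16) without overlap (exact two-sided permutation test, p = 0.1, the smallest that 3 against 3 allow, adjusted p = 0.26 over the 21 ratio comparisons made).

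All 6 genes of the MCM2-7 ring were called lower, in a narrow band of log2 fold changes from -2.13 to -1.43 (median -1.58). MCM2 decreased the most, from 67.5, 62.1 and 55.2 CPM in vector to 12.9, 14.7 and 14.5 CPM in vector/4OHT, or 22.8% of its vector mean (log2 fold change -2.13, SE 0.11, adjusted p = 1.12e-08). MCM5 followed with -1.85, MCM3 with -1.64, and MCM4 and MCM6 with -1.52 each. MCM7 decreased the least, from 141, 125 and 112 CPM to 45.7, 47.0 and 47.2 CPM, or 37.1% of its vector mean (log2 fold change -1.43, SE 0.10, adjusted p = 2.03e-07). The 6 proteins form the ring in equal numbers. To compare their transcripts, CPM was divided by the joined length of all annotated exons of a gene, 7338 bases for MCM5 and 4386 for MCM7. This length can exceed that of the transcripts expressed, and its part in the span between genes was not tested. In vector, CPM per kilobase ranged from 7.68 ± 0.68 for MCM5 to 28.7 ± 3.34 for MCM7, a 3.73-fold span. In vector/4OHT the span was 4.99-fold, from 2.13 ± 0.07 for MCM5 to 10.6 ± 0.17 for MCM7, and MCM2 stood at 2.86 ± 0.20.

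The genes that turn the loaded ring into a working helicase held 4 of the 9 changes of at least 2 on the log2 scale. GINS2 went from 21.9, 19.4 and 18.6 CPM to 3.72, 4.01 and 3.41 CPM (log2 fold change -2.44, SE 0.16, adjusted p = 7.75e-08). MCM10, which helps the helicase to start, fell by 2.41 on the log2 scale, from 22.4 ± 1.72 to 4.22 ± 0.22 CPM. CDC45 fell by 2.31 (SE 0.097, adjusted p = 1.62e-09, the lowest of the 42 genes) and GINS1 by 2.14. The other GINS subunits decreased less, although the 4 subunits form 1 complex. GINS3 went from 9.46, 8.02 and 8.08 CPM to 2.84, 3.23 and 3.41 CPM (log2 fold change -1.43), and GINS4 from 41.9, 39.8 and 36.5 CPM to 16.1, 16.1 and 16.1 CPM (log2 fold change -1.29, SE 0.077, adjusted p = 3.79e-08). The log2 ratio of GINS3 to the geometric mean of the other 3 was -1.52, -1.66 and -1.56 in vector and -1.23, -1.06 and -0.89 in vector/4OHT. It was higher in all induced libraries by 0.52 (SE 0.11, exact two-sided permutation p = 0.1, adjusted p = 0.26).

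Of the DDK kinase that fires licensed origins, the catalytic CDC7 decreased more than its activator DBF4. CDC7 had 7.54, 12.1 and 11.7 CPM in vector and 4.59, 4.29 and 3.83 CPM in vector/4OHT, with vector T well below the other vector libraries (log2 fold change -1.31, SE 0.20, adjusted p = 0.000184). DBF4 had 13.7, 16.8 and 21.7 CPM against 12, 11.6 and 11.7 CPM (log2 fold change -0.56, SE 0.18, adjusted p = 0.0225), and it lost its call in 5 of 15 alternative analyses, among them the fit with the replicate letter as a block (-0.33) and those without vector C (-0.37) and without vector/4OHT T (-0.57), A (-0.55) or B (-0.57). The log2 ratio of CDC7 to DBF4 was -0.86, -0.47 and -0.89 in vector and -1.38, -1.44 and -1.61 in vector/4OHT, lower by 0.73 without overlap (SE 0.15, exact two-sided permutation p = 0.1, adjusted p = 0.26).

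Of the 7 ratios compared within libraries, that of the primase subunits had the largest estimate in OIS, close to that of POLE to POLE2 given below. The order of these ratios is not fixed. With the offset for GC content and length described further on, PRIM1 gave -2.61 and PRIM2 -1.38, beside -2.64 for POLE2 and -1.20 for POLE. Primase is the enzyme that makes the RNA start of each new strand. PRIM1, its catalytic subunit, went from 8.93, 8.62 and 9.07 CPM in vector to 1.5, 1.21 and 1.8 CPM in vector/4OHT, or 16.9% of its vector mean (log2 fold change -2.54, SE 0.16, adjusted p = 7.27e-08). PRIM2, the large subunit, went from 32.7, 34.1 and 34.1 CPM to 14.3, 12.7 and 14.4 CPM (log2 fold change -1.28, SE 0.10, adjusted p = 5.47e-07). The log2 ratio of PRIM1 to PRIM2 thus moved from -1.87, -1.98 and -1.91 to -3.25, -3.40 and -3.01, a difference of -1.30 (SE 0.12, exact two-sided permutation p = 0.1, adjusted p = 0.26). The exons of PRIM1 overlap other genes, NACA among them, on the same strand, so some of its reads could be shared. Of the polymerase alpha subunits that extend the primer, the catalytic POLA1 fell by 1.46 and POLA2, with 46.8, 39.4 and 38.7 CPM against 23.2, 24.1 and 27.2 CPM, by 0.74 on the log2 scale (adjusted p = 0.000247 for POLA2). POLA2 shares 2012 of its 5726 exonic bases with AP000944.2 on the same strand, so some of its reads could be shared too.

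Polymerase epsilon, which copies the leading strand, showed a similar split. POLE2 went from 8.40, 9.62 and 9.41 CPM to 1.53, 1.52 and 1.69 CPM (log2 fold change -2.52, SE 0.14, adjusted p = 2.43e-08), and the catalytic POLE from 56.0, 47.8 and 44.5 CPM to 19.9, 19.0 and 20.1 CPM (log2 fold change -1.33, SE 0.13, adjusted p = 4.32e-06). The log2 ratio of POLE to POLE2 was 2.74, 2.31 and 2.24 in vector and 3.70, 3.64 and 3.57 in vector/4OHT, higher by 1.21 (SE 0.16, exact two-sided permutation p = 0.1, adjusted p = 0.26). In polymerase delta, which makes the lagging strand, the catalytic POLD1 (-1.33) and the PCNA-binding POLD3 (-1.42) fell alike. POLD2, the subunit that joins them, had 80.4, 73.4 and 66.1 CPM in vector and 53.0, 61.7 and 58.0 CPM in vector/4OHT. Its induced libraries were lower, but it kept 78.5% of its vector mean (log2 fold change -0.35, SE 0.12, adjusted p = 0.0295), and it was called in 11 of 15 alternative analyses, but not without vector T (-0.28) or A (-0.36) or without vector/4OHT T (-0.29) or B (-0.37).

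**Figure D2:**
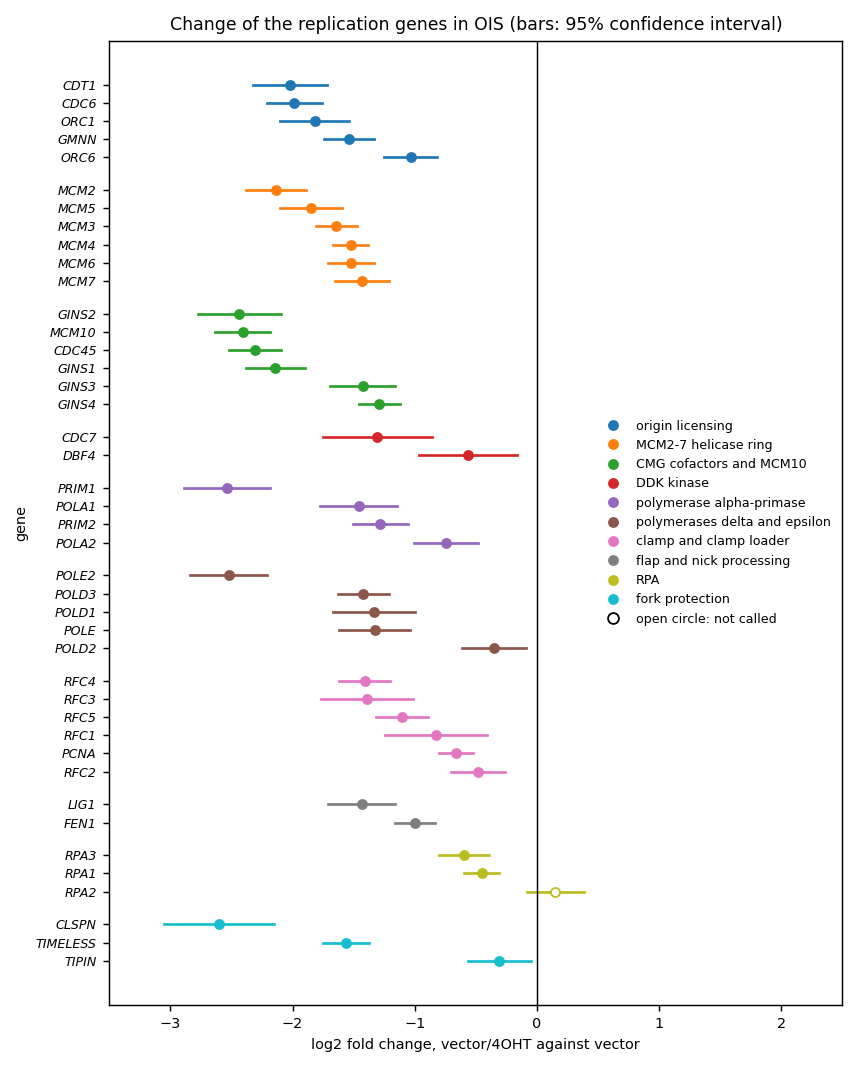
Log2 fold change of vector/4OHT against vector (horizontal axis) for each of the 42 genes (vertical axis, coloured by role), with points for estimates, bars for 95% confidence intervals and an open point for the gene that was not called. All intervals lie below 0 except that of RPA2, and those of CLSPN, PRIM1, POLE2, GINS2, MCM10 and CDC45 lie wholly below -2.

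All 6 genes of the clamp and its loader were called lower, with a smaller median log2 fold change of -0.97. PCNA, the sliding clamp, went from 119, 115 and 115 CPM to 73.0, 70.9 and 75.9 CPM, or 63.0% of its vector mean (log2 fold change -0.67, SE 0.064, adjusted p = 2.98e-06). RFC4 had the largest change, from 19.6, 21.3 and 22.2 CPM to 8.01, 7.94 and 7.81 CPM (log2 fold change -1.41, SE 0.095, adjusted p = 1.21e-07), and RFC2 the smallest, from 31.3, 29.4 and 28.2 CPM to 19.9, 20.9 and 23.0 CPM (log2 fold change -0.48, SE 0.10, adjusted p = 0.00175). Between them stood RFC3 (-1.39), RFC5 (-1.11) and the large subunit RFC1 (-0.83). RFC1 varied most within vector, with 48.0, 57.9 and 72.5 CPM, against 32.8, 37.4 and 30.4 CPM in vector/4OHT. Its log2 ratio to the geometric mean of RFC2, RFC3, RFC4 and RFC5 overlapped between the groups, with 1.14, 1.35 and 1.69 in vector and 1.64, 1.87 and 1.51 in vector/4OHT.

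The enzymes that finish Okazaki fragments also decreased. LIG1, the ligase, went from 36.6, 33.1 and 31.2 CPM to 12.2, 11.8 and 13.2 CPM (log2 fold change -1.43, SE 0.13, adjusted p = 1.42e-06). FEN1, the flap nuclease, went from 59.0, 57.2 and 55.3 CPM to 28, 27.3 and 30.5 CPM (log2 fold change -0.999, SE 0.076, adjusted p = 3.47e-07).

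RPA, which coats single-stranded DNA in repair as well as in replication, changed least of the 10 role groups, with a median log2 fold change of -0.45. RPA1 kept 73.0% of its vector mean (121, 117 and 111 CPM against 82.7, 82.6 and 89.5 CPM, log2 fold change -0.45, SE 0.066, adjusted p = 0.000108). RPA3 kept 65.9% (12, 10.6 and 11 CPM against 7.54, 6.77 and 7.79 CPM, log2 fold change -0.60, SE 0.093, adjusted p = 0.000182). RPA2 had 44.8, 37.2 and 36.9 CPM in vector and 41.8, 44.4 and 45.8 CPM in vector/4OHT, with overlap between the groups. Its log2 fold change of 0.15 had a 95% confidence interval of -0.083 to 0.39 (adjusted p = 0.261), which leaves out a decrease of the size seen for RPA1 or RPA3. The log2 ratio of RPA1 to RPA3 overlapped between the groups (3.33, 3.47 and 3.33 against 3.45, 3.61 and 3.52).

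The fork protection proteins spanned almost the whole range of the set. CLSPN, the adaptor that activates the checkpoint kinase CHK1 at stalled forks, went from 21.2, 29.4 and 33.0 CPM in vector to 4.54, 5.25 and 4.05 CPM in vector/4OHT, or 16.6% of its vector mean (log2 fold change -2.60, SE 0.21, adjusted p = 5.19e-07). TIMELESS fell from 52.0 ± 2.80 to 17.5 ± 0.58 CPM (log2 fold change -1.57, SE 0.086, adjusted p = 1.78e-08). TIPIN, its binding partner, had 9.30, 10.4 and 11 CPM against 8.12, 8.12 and 8.59 CPM, a log2 fold change of -0.31 (SE 0.12, adjusted p = 0.0472) that was called in 7 of 15 alternative analyses. The call was lost with the replicate block (-0.20), with DESeq2 (-0.31) and with no filter on low counts (-0.30), and also without vector A (-0.31) or C (-0.25) and without vector/4OHT T (-0.29), A (-0.29) or B (-0.35). TIPIN shares 579 exonic bases with RPL9P25 on the same strand, and 18 of the 42 genes have exons that overlap another gene. The counts of these genes are uncertain to that extent, the strand setting of the counting being not given in the sources used here.

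Levels of different genes were compared per kilobase of exon, with all annotated exons of a gene joined. The ranks therefore depend on the annotated length as well as on the counts. In vector, PCNA was the most abundant of the 42 transcripts, at 79.0 ± 1.75 CPM per kilobase, followed by MCM7 (28.7 ± 3.34), MCM3 (24.9 ± 1.73) and FEN1 (23.1 ± 0.73), and GINS3 was the least abundant at 1.67 ± 0.16, a 47.4-fold span. Neighbours in the order MCM7, MCM3, FEN1 differed by less than the sum of their SDs. In vector/4OHT the span was 92.9-fold. PCNA stayed first (49.8 ± 1.70), and RPA2 (21.8 ± 1.02), POLD2 (15.6 ± 1.19) and RPA1 (15.5 ± 0.73) took the next ranks, with POLD2 and RPA1 within their SDs of each other, ahead of FEN1 (11.5 ± 0.68) and MCM7 (10.6 ± 0.17). POLE2 stood last at 0.54 ± 0.03, next to PRIM1 at 0.62 ± 0.12, a difference within their spread. The Spearman correlation of the level in vector with the log2 fold change over the 42 genes was 0.20, given as a description, since the genes share the same libraries.

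Genes of the same pathway outside the set of 42 gave a mixed picture. Of 37 listed, 21 were called lower and 4 higher, where 26.1% of all genes tested were called lower and 24.8% higher. Their median log2 fold change was -0.53. The 6 with the largest decrease were PCLAF, a PCNA partner (-2.57), the histone chaperone genes CHAF1B (-2.50) and ASF1B (-2.47), TICRR, which brings CDC45 to origins (-2.36), DTL, the adaptor that has CDT1 destroyed (-2.14), and RNASEH2A (-1.70). The 4 called higher were POLD4 (0.75), ORC5 (0.48), RNASEH2C (0.43) and POLE3 (0.28). The calls of RNASEH2C and POLE3 were lost with upper-quartile scaling, at 0.33 and 0.18, and with the replicate block, at 0.33 and 0.25, and that of POLE3 also without vector A or vector/4OHT B (0.25 in each).

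Because ORC1 and ORC6 are in the set and ORC2 to ORC5 are not, the complex could be viewed whole (these subunits, apart from ORC5, and POLE4 were picked after their values had been seen). ORC2 had 22.3, 27.2 and 29 CPM in vector and 25.6, 25.9 and 25.9 CPM in vector/4OHT (log2 fold change -0.02, 95% confidence interval -0.30 to 0.26). ORC3 (-0.10, interval -0.68 to 0.47) and ORC4 (0.04, interval -0.41 to 0.50) were not called either. ORC5 went from 18.9, 23.1 and 22.4 CPM to 30.3, 30.8 and 28.7 CPM. ORC1 and ORC6 were the subunits of this complex that were called lower, and the intervals of ORC1 and ORC6 do not meet those of ORC2, ORC3, ORC4 or ORC5. Polymerase delta was also split, with POLD1, POLD2 and POLD3 lower and POLD4 higher (4.57, 3.96 and 3.57 CPM against 7.13, 6.59 and 6.64 CPM). In polymerase epsilon POLE, POLE2 and POLE4 (-0.39, not called without vector T, at -0.30, or without vector/4OHT T or A, at -0.39 and -0.33) were lower and POLE3, a histone-fold subunit, was higher.

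**Figure D3:**
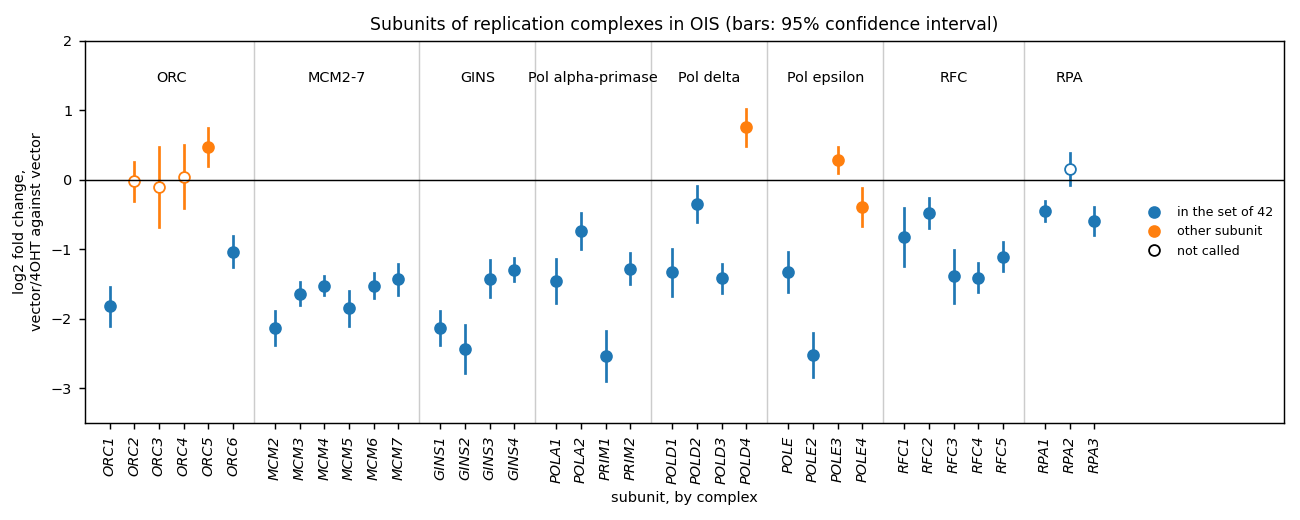
Log2 fold change of vector/4OHT against vector (vertical axis) for the subunits of 8 replication complexes (horizontal axis), with bars for 95% confidence intervals, blue for the set of 42, orange for other subunits and open points for subunits that were not called. All MCM2-7, GINS, polymerase alpha-primase and RFC subunits lie below 0, while ORC5, POLD4 and POLE3 lie above it and ORC2, ORC3, ORC4 and RPA2 have intervals that include it.

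With XPO7 knocked down in the induced cells, no replication gene was called different from vector/4OHT. The count was 0 of 42 in shXPO7_3/4OHT and 0 of 42 in shXPO7_5/4OHT by edgeR, where 0.124% and 0.589% of all genes tested were called in either direction. At an unadjusted p under 0.05 there were 5 of 42 (11.9%) for shXPO7_3, beside 6.41% of all genes tested, and 9 of 42 (21.4%) for shXPO7_5, beside 21.6%. DESeq2 called 0 with shXPO7_3 and 1, MCM2, with shXPO7_5. With shXPO7_5 it called 426 of the 15284 genes tested, a share close to that among the 42. Both comparisons share the vector/4OHT libraries, so they are given side by side and not as separate support. With shXPO7_3, 33 genes had estimates above 0 and 9 below (median log2 fold change 0.06, range -0.13 to 0.36, median of all genes -0.0031). With shXPO7_5, 28 were above and 14 below (median 0.11, range -0.41 to 0.43, median of all genes 0.0058), and with the offset for GC content and length described further on these counts were 37 and 5. These estimates were small beside those of OIS, and the typical 95% confidence interval was 0.24 wide on either side.

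Every knockdown library was above every vector/4OHT library in 7 of the 42 genes with shXPO7_3 (7.46% of all genes tested) and below in 0 of them (7.15%). With shXPO7_5 the counts were 11 above (14.2%) and 2 below (12.6%). CDC45 and MCM2 were among those above with either shRNA. CDC45 was at 3.50, 3.62 and 3.35 CPM in vector/4OHT, at 4.75, 4.17 and 4.15 CPM with shXPO7_3 and at 4.92, 4.53 and 4.40 CPM with shXPO7_5. Its log2 fold changes of 0.32 (SE 0.10, adjusted p = 0.422) and 0.41 (SE 0.10, adjusted p = 0.0877) had the lowest adjusted p of the 42 genes in either comparison. MCM2 was at 12.9, 14.7 and 14.5 CPM in vector/4OHT, at 18.2, 15.5 and 15.8 CPM with shXPO7_3 (log2 fold change 0.23, adjusted p = 0.806) and at 20.4, 16.5 and 20.0 CPM with shXPO7_5 (log2 fold change 0.43, SE 0.11, adjusted p = 0.0933). MCM2 was thus at 30.8% of its vector mean with shXPO7_5 and at 22.8% of it in vector/4OHT. Among the licensing factors, CDC6 was at 11.7, 13 and 10.7 CPM with shXPO7_3 and 12.9, 10.8 and 10.4 CPM with shXPO7_5, all above the 8.83, 10.1 and 9.58 CPM of vector/4OHT (log2 fold changes 0.31 and 0.26, adjusted p = 0.479 and 0.205). ORC1 gave 0.32 and 0.28, and MCM7 0.14 and 0.32 (adjusted p = 0.155 with shXPO7_5). MKI67, given here as the proliferation marker, was at 36.4, 36.5 and 34.7 CPM with shXPO7_3 and at 35.3, 38.9 and 32.2 CPM with shXPO7_5, above all vector/4OHT libraries but not called (log2 fold changes 0.38 and 0.37, adjusted p = 0.167 and 0.0855). MKI67 was called higher with either shRNA by DESeq2 (0.40 and 0.38) and with the offset (0.41 and 0.48).

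GMNN and PCNA were the 2 genes whose shXPO7_5/4OHT libraries were all lower. GMNN was at 6.54, 7.61 and 7.02 CPM, against 7.87, 8.47 and 7.77 CPM in vector/4OHT, and PCNA at 70.7, 70.1 and 63.5 CPM, against 73.0, 70.9 and 75.9 CPM. The margins were narrow, and no call was made. Their log2 fold changes of -0.19 and -0.11 turned to 0.11 and 0.05 with the offset. With CDT1 at 4.78, 4.62 and 5.98 CPM, the log2 ratio of CDT1 to GMNN was -0.45, -0.72 and -0.23 with shXPO7_5, above its vector/4OHT values by 0.53 (SE 0.18, exact two-sided permutation p = 0.1, adjusted p = 0.26). With shXPO7_3 it was -0.77, -1.16 and -1.09, a difference of -0.01 (SE 0.17) with overlap. The ratio of RFC1 to RFC2-5 was lower with shXPO7_5, at 1.13, 1.51 and 1.11, by 0.42 (SE 0.17, p = 0.1 in the exact test, adjusted p = 0.26), and that of RPA1 to RPA3 was higher with shXPO7_3, at 3.65, 3.61 and 3.66, by 0.11 (SE 0.047, p = 0.1 in the exact test, adjusted p = 0.26). Of the 14 knockdown ratio comparisons these 3 had no overlap between the groups. GC content differs between CDT1 (65.8%) and GMNN (41.4%). With the offset CDT1 gave 0.10 and GMNN 0.11, in place of 0.34 and -0.19, so that their difference was no longer seen, and RFC1 gave -0.13 in place of -0.41.

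The GC content of transcripts moved with the shXPO7_5 estimates. Across the 42 genes the Spearman correlation of the log2 fold change with GC content was 0.68 for shXPO7_5 and 0.15 for shXPO7_3, and over all genes with a value it was 0.67 and 0.11. The genes are measured in the same libraries, so they are not independent points. With shXPO7_5 the 14 genes of lowest GC content (38.4% to 44.4%) had a median of -0.14, the middle 14 had 0.09, and the 14 of highest GC content (51.5% to 65.8%) had 0.24. RFC1 (41.4% GC, log2 fold change -0.41) and POLD2 (58.6% GC, 0.38) followed this trend, and POLE2, of the lowest GC content (38.4%), went against it (0.33). Single libraries differed in it. Within shXPO7_5/4OHT the correlation over the 42 genes was 0.89 in library B, 0.58 in T and 0.09 in A, and within shXPO7_3/4OHT it was 0.69 in T, -0.52 in A and -0.28 in B. In OIS it was -0.02.

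With an offset for GC content and length in the fit, the correlation over the 42 genes was -0.04 for shXPO7_5. Then 4 of the 42 genes were called, all of them higher, where 2.82% of all genes were called in either direction. These were POLE2 (log2 fold change 0.69, adjusted p = 0.0253), CDC45 (0.37, adjusted p = 0.0267), MCM7 (0.21, adjusted p = 0.0283) and MCM2 (0.27, adjusted p = 0.0338), all from edgeR. POLE2 moved up with the offset, from 0.33, while MCM2, of high GC content (58.3%), moved down, from 0.43. With shXPO7_3 the offset left 0 of 42 called, and CDC45 came nearest (0.32, adjusted p = 0.0534). Leaving out shXPO7_5/4OHT library A, the one that follows GC content least, gave 9 calls among the 42, 6 higher and 3 lower. Of the 15790 genes then tested 3634 were called, a share close to that among the 42. Leaving out, after the data had been seen, the 3 knockdown libraries that follow GC content most (shXPO7_3 T, shXPO7_5 T and B) gave 0 calls in either comparison, but leaves library A alone for shXPO7_5, whose spread was then assumed to be that of the other groups. The part of GC content in the differences was not tested beyond these fits.

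**Figure D4:**
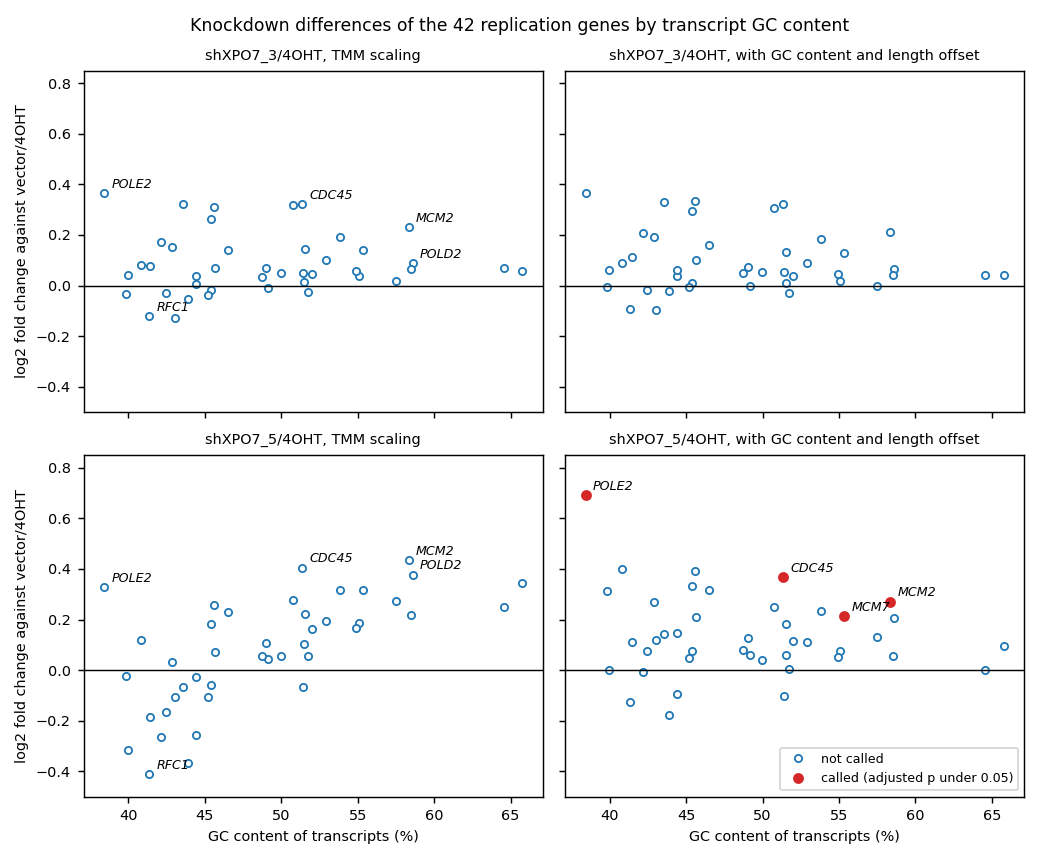
Log2 fold change of each of the 42 genes against vector/4OHT (vertical axis) by the GC content of its transcripts in percent (horizontal axis), for shXPO7_3/4OHT (top) and shXPO7_5/4OHT (bottom), with TMM scaling alone (left) and with an offset for GC content and length (right). Red points are called genes, of which there were 4, all with shXPO7_5 and the offset, and the slope of the lower left panel (Spearman 0.68) is not seen at its right (-0.04).

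Compared directly, shXPO7_5/4OHT and shXPO7_3/4OHT differed in 0 of the 42 genes (0.0131% of all genes tested were called in either direction), with 5 of 42 (11.9%, the same share as of all genes tested) at an unadjusted p under 0.05 in edgeR and 0 called by DESeq2. The median log2 difference was 0.02. With TMM scaling alone the largest was that of RFC3, which was at 5.86, 10.2 and 6.61 CPM with shXPO7_5 and 9.17, 10.9 and 10.6 CPM with shXPO7_3 (log2 fold change -0.44, 95% confidence interval -0.82 to -0.05, adjusted p = 0.388). CLSPN gave -0.39 (interval -0.85 to 0.07) and RFC1 -0.29 (interval -0.71 to 0.13). These sizes moved with single libraries. RFC3 ran from -0.71 without shXPO7_5/4OHT A to -0.29 without shXPO7_5/4OHT T, CLSPN from -0.54 without shXPO7_3/4OHT T to -0.21 without shXPO7_3/4OHT A, and RFC1 from -0.50 without shXPO7_5/4OHT A to -0.18 without shXPO7_3/4OHT B. With the offset RFC3 gave -0.22, CLSPN -0.19 and RFC1 -0.04. In this comparison the correlation with GC content over the 42 genes was 0.84.

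Against the vector cells without induction, replication gene levels were low in the knockdown groups too. With shXPO7_3, 39 of the 42 genes were called lower (26.2% of all genes tested) and with shXPO7_5 40 (27% of all genes tested), and 0 were called higher. The medians were -1.37 and -1.45, beside -1.42 in vector/4OHT, and all of these comparisons share the vector libraries. The log2 fold changes with shXPO7_3 and shXPO7_5 were -1.90 and -1.699 for MCM2, -2.28 and -2.67 for CLSPN, -2.46 and -2.42 for PRIM1, -2.16 and -2.19 for POLE2, -0.70 and -0.77 for PCNA, and -0.52 and -0.88 for DBF4. With shXPO7_3 DBF4 was called in 10 of 16 alternatives. The call was lost without vector A (-0.57) or C (-0.33) and without shXPO7_3/4OHT T (-0.42). It was also lost with the replicate block (-0.30), in the fit to the compared groups only (-0.53) and without the 3 libraries that follow GC content most (-0.39). RPA2 gave 0.19 and 0.21 (95% confidence intervals -0.05 to 0.42 and -0.03 to 0.44) and was not called, although with shXPO7_5 it was called higher with the offset (0.24, adjusted p = 0.0308), without vector T (0.31) and without shXPO7_5/4OHT A (0.31). TIPIN was called lower with shXPO7_5 (-0.56, adjusted p = 0.00184) and had an estimate of -0.27 with shXPO7_3 (adjusted p = 0.0751). With shXPO7_3 it was called lower with upper-quartile scaling (-0.36), the 1 CPM filter (-0.30), the offset (-0.28) and the offset with the block (-0.24), and with shXPO7_5 the call was lost without the 3 libraries that follow GC content most (-0.32). POLD2 was called with neither shRNA.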

How the data were processed

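RNA-seq libraries were made with an Illumina stranded mRNA kit from 12 samples, 3 for each of the 4 groups of IMR90 ER:RAS cells. The authors deposited whole-number read counts per gene, not normalized. Per the submitters' processing notes, the build was hg19 and the tools were TopHat2 2.0.11, CASAVA 1.8.4 and featureCounts 1.18.0. Not given in the sources used here were the annotation, the strand setting, the treatment of multi-mapping reads and a test for the counts. The 92 spike-in entries were all 0 and were left out.

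Counts were filtered with filterByExpr, scaled with TMM and fitted over all 12 libraries with edgeR's quasi-likelihood test (edgeR 4.0.16, limma 3.58.1, R 4.3.3). Calls used Benjamini-Hochberg adjusted p under 0.05 over 15284 genes. DESeq2 1.42.0, other scalings and filters, a fit to the compared groups only, a replicate block, an offset for GC content and length, and leaving out each library were tried as alternatives. Ratios within a library were compared by exact two-sided permutation tests. Exon lengths, taken over all annotated exons of a gene joined, and GC content came from GENCODE 29 (GRCh38), matched by Ensembl ID. No coordinates of the count table's build were used. Overlaps between exons refer to that annotation.

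The 42 genes and the other gene lists were chosen with earlier results of these data known. Any of the 42 could be named by its role. Values per library were given for the largest and smallest change in OIS in each role group, for the members of the ratios and for genes described in a knockdown, and of the other pathway genes up to 6 with the largest change each way were named. No 2 libraries of a group were repeats, since a chi-square of their counts gave 4.27 to 56.2 per gene. On simulated data of 15072 genes, log2 changes of 0.5, 1 and 2 were called for 35.8%, 74.6% and 93.9% of changed genes in the OIS comparison. In the shXPO7_5 comparison the shares were 23.9%, 80.6% and 97.0%. The changed genes were few and picked at random, at levels averaged over all libraries, so these shares do not describe the 42 genes. Motifs in proteins were not searched.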

Additional observations from a re-analysis of the deposited data

How the results depend on the processing

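In OIS, 38 of the 42 genes were called lower in all 15 alternatives, and all 42 kept their sign. The 4 not called in all of them were DBF4 (log2 fold change -0.71 to -0.33), POLD2 (-0.45 to -0.22), TIPIN (-0.40 to -0.20) and RPA2, called in 0 of 15 (0.05 to 0.25). Called genes numbered 31 with a fold threshold of 1, and 38 to 40 when single libraries were left out. With shXPO7_3 0 genes were called in any alternative, and likewise between the shRNAs. With shXPO7_5, 4 were called with the GC and length offset, where 431 of all 15284 genes tested were called. With that offset and the replicate block 4 were called (777 of all genes), and with DESeq2 1 (426 of all genes). Leaving out single libraries gave 0 to 9 calls, the 9 without shXPO7_5/4OHT A, where 3634 of 15790 genes were called. Against vector, leaving out single libraries gave 38 to 39 calls with shXPO7_3 and 39 to 40 with shXPO7_5. The causes were not tested.

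Median log2 fold changes with single libraries left out ran from -1.47 to -1.40 in OIS, 0.03 to 0.08 with shXPO7_3, 0.06 to 0.14 with shXPO7_5, 0.0034 to 0.037 between the shRNAs, and against vector -1.40 to -1.36 and -1.45 to -1.41. Upper-quartile scaling gave -1.52 in OIS, 0.16 with shXPO7_5, 0.07 between the shRNAs and -1.46 for shXPO7_3 against vector. For the latter the 1 CPM filter gave -1.40, the replicate block -1.39, and the offset -1.34 without and with the block. For shXPO7_5 against vector the offset gave -1.31, and -1.34 with the block. Without the 3 libraries that follow GC content most, an alternative added after the data had been seen that leaves 1 library, A, for shXPO7_5, the medians were 0.05 for shXPO7_5 against vector/4OHT and -1.32 against vector. Leaving out single libraries moved the log2 ratio of GINS3 to the other GINS genes with shXPO7_3 between -0.16 and 0.0037, CDC7 to DBF4 in OIS between -0.81 and -0.60, POLE to POLE2 in OIS between 1.11 and 1.36, and RPA1 to RPA3 with shXPO7_3 between 0.08 and 0.15.

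Signs turned for genes without a call. ORC4 in OIS gave -0.052 with upper-quartile scaling, -0.092 with the offset, -0.099 with offset and block, and -0.069 to 0.15 without single libraries. ORC2 and ORC3 in OIS gave 0.065 and 0.18 with the block, and without single libraries ORC2 ran from -0.12 to 0.061 and ORC3 from -0.32 to 0.09. RFC1 with shXPO7_3 ran from -0.23 to 0.023 without single libraries and gave 0.031 without the 3 libraries. CLSPN with shXPO7_5 gave 0.14 with the offset, 0.13 with offset and block, -0.20 to 0.049 without single libraries and 0.18 without the 3 libraries, where RFC3 gave 0.17. GMNN and PCNA with shXPO7_5 gave 0.110 and 0.050 with the offset, and 0.114 and 0.049 with offset and block. Of the 42 genes 22 kept their sign with shXPO7_5 in all alternatives, and 23 with shXPO7_3.

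The labels do not say what the replicate letters stand for, and the letters were not taken as pairs, since not every same-letter pair correlated above 0.1. Over 15 same-letter pairs the correlation of deviations ran from -0.23 to 0.59, with 8 above 0.1, and 6 of 12 libraries were closest to their own letter. With the replicate block 39 of the 42 genes were called in OIS, 0 in either knockdown, and 39 and 40 against vector. In the simulated data, with 3 libraries a group, 23.9% to 35.8% of log2 changes of 0.5 were called. The changed genes there were few and picked at random, so these shares do not describe the 42 genes.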
